A study of Mus musculus with 12 samples.

Results

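The metallothioneins and zinc handling genes described here are 5 genes, Mt1, Mt2, Mtf1, Slc30a1 and Slc39a10, chosen by their symbols from the 35275 genes of the deposited expression table and read in all 12 libraries. They were selected on the levels these libraries showed, so their levels are given as a description and carry no test. The libraries were made from hematopoietic stem cells of C57BL/6 mice, sorted by flow cytometry. They form 4 groups of 3: Thpo+/+ (wild type) untreated, Thpo-/- (knockout, without the hormone thrombopoietin) untreated, Thpo+/+ after 10 days of Romiplostim, and Thpo-/- after 10 days of Romiplostim. Romiplostim is an agonist of the thrombopoietin receptor, injected into a vein each day at 100 µg/kg. The treatment protocol names PBS for controls, while the label of both control groups reads untreated. Age and sex of the mice are not in the labels, and nothing there says that the 3 libraries of a group came from separate animals, so the spread between them may be in part technical. All 3 libraries of a group shared 1 sequencing run, so run and group cannot be told apart.

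Metallothioneins are small, cysteine-rich proteins that hold zinc and copper in the cytosol. The zinc finger protein Mtf1 senses free zinc and switches on Mt1, Mt2 and the zinc exporter Slc30a1 through short DNA motifs called metal response elements, and it is known as a repressor of the importer Slc39a10. Transporters of the SLC30 family move zinc out of the cytosol, and those of the SLC39 family bring it in. Glucocorticoids and oxidative stress are further known inducers of Mt1 and Mt2.

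The coding sequences of Mt1 and Mt2 are shown because both genes lie side by side on chromosome 8 and could share reads. They were taken from GENCODE M21 (mm10) and run 5′ to 3′, with the bases that differ between the 2 genes in capitals.
Mt1: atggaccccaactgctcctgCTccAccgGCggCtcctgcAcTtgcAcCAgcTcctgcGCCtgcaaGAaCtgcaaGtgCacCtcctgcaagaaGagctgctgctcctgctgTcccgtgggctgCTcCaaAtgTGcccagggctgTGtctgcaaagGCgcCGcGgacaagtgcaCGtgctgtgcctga
Mt2: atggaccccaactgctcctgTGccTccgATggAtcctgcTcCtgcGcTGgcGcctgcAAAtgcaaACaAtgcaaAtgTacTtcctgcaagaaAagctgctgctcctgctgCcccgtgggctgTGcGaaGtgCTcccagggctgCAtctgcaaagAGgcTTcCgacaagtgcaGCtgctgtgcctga
Each is 186 bases long, from 3 exons, and holds 20 cysteine codons among 62 codons including the stop. They differ at 38 bases and are 79.6% identical. The longest stretch the whole transcripts share is 20 bases, against reads of 150 bases, so a whole read cannot match both genes exactly. How the authors treated reads with several matches is not given in the sources used here.

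The 250 bases before the RefSeq start of Mt1, Mt2 and Slc30a1 are shown because these genes are the textbook targets of Mtf1 (RefSeq, GRCm38.p6). Capitals mark the core of the metal response element, searched as TGCACNC or TGCGCNC on both strands, where N is any base. Each sequence runs 5′ to 3′ on the strand of its gene, which is the plus strand for all 3.
Mt1, chr8:94178839-94179088: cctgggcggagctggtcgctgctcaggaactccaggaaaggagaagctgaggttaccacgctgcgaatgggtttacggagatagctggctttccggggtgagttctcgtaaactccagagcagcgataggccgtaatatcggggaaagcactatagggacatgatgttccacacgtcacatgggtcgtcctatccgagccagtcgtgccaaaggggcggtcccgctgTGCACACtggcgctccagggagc
Mt2, chr8:94172368-94172617: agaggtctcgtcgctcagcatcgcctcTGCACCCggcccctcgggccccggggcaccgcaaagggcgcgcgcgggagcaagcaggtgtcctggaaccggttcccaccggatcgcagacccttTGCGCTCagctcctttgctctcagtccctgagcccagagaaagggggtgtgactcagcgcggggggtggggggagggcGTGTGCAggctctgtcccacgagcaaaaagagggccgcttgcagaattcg
Slc30a1, chr1:191906531-191906780: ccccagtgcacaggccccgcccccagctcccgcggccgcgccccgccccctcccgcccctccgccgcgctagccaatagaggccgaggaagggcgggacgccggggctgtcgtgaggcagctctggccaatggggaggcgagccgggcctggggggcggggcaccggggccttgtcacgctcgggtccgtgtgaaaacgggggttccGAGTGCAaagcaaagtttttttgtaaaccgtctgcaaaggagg
The window of Mt1 held 1 match, from base -23 to -17 before the start. That of Mt2 held 3, which began at -223, -128 and -50, the last on the minus strand. That of Slc30a1 held 1, at -43 on the minus strand. None was found in the window of Mtf1 or in either of 2 windows of Slc39a10. The GENCODE gene start lay 445 bases from the RefSeq start used for Mtf1. For Slc39a10 it lay 39234 and 32924 bases from the RefSeq starts used, so these windows do not adjoin it. Of 32851 windows of this length in the RefSeq table, 21.4% held at least 1 match, 5.17% at least 2 and 1.26% at least 3. Of 24 windows from 20 of the other zinc genes listed below, 11 (45.8%) held a match. Other GENCODE models start further downstream, at 94179211 and 94179241 for Mt1 and at 94172860 for Mt2. The bases just before those starts are outside the windows, and a window without the letters says nothing of Mtf1 binding.

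In mm10, Mt1 (ENSMUSG00000031765) spans chromosome 8 from 94179082 to 94180327 and Mt2 (ENSMUSG00000031762) from 94172664 to 94173568, both on the plus strand. Mtf1 (ENSMUSG00000028890) spans chromosome 4 from 124802104 to 124849800 on the plus strand. Slc30a1 (ENSMUSG00000037434) spans chromosome 1 from 191906767 to 191913247 on the plus strand. Slc39a10 (ENSMUSG00000025986) spans chromosome 1 from 46807544 to 46892852 on the minus strand. All 5 passed the filter on low values, which asked for 3 or more libraries with an FPKM (fragments per kilobase of transcript, scaled to library depth) of 1 or more and kept 12823 genes.

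Several facts of the whole series touch these genes. Library depth, recovered from the step between low values, was 27.7 to 35.6 M fragments. At that depth the recovered fragments of a library ranged from 3050 to 50371 for Mt1, from 29 to 9836 for Mt2, and from 174 to 326 for Slc30a1, the thinnest of the others. Thpo itself was listed at 0 in all 6 knockout libraries and at no more than 0.0426 FPKM in wild type, so its level checks no label in these cells. The stem cell list of 12 markers summed to 1643.5 to 2253.7 FPKM in untreated wild type and 532.2 to 737.9 in untreated knockout, and 11 of the 12 fell in that comparison. Procr, a stem cell surface receptor, stood at 130.18 to 150.87 FPKM in untreated wild type and 16.47 to 22.17 in untreated knockout. Markers of B cells (10 of 10), macrophages (10 of 10), neutrophils and monocytes (10 of 12) and erythroid cells (8 of 12) rose there. So did those of T and NK cells (8 of 8 tested), mast cells and basophils (6 of 7) and stromal and endothelial cells (6 of 7). Of the megakaryocyte and platelet markers, 3 of 9 fell. These are limma calls at an adjusted p of 0.05, which 45.1% of all genes passed in that comparison. The mean of 4 Y-linked genes was 11.3 to 24.9 FPKM in untreated knockout and 0.01 to 0.04 in treated knockout. In knockout, Romiplostim and the sex of the mice, which these genes mark, thus cannot be told apart. Both wild-type groups held low and high libraries, with ranges of 0.14 to 23.16 untreated and 0.02 to 21.22 treated.

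Mt1, the more abundant metallothionein, was about 4 times higher in the untreated knockout than in untreated wild type. Its level was 111.57, 117.61 and 93.66 FPKM in untreated wild type, and 406.36, 401.06 and 450.29 FPKM in untreated knockout. Every knockout library lay above every wild-type library. The means were 108 ± 12.5 and 419 ± 27.0 FPKM (SD, n = 3), a 3.9-fold ratio. On the log2(FPKM + 1) scale, used for all log2 differences below, the difference was 1.96 ± 0.53 (SE). Each SE comes from 1 spread per gene pooled over all 4 groups. For Mt1 and Mt2 it is therefore widened by the treated knockout libraries described below, also in comparisons without them. Among all genes by level, Mt1 ranked 1316 to 1651 in untreated wild type and 272 to 325 in untreated knockout.

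Mt2 differed more in the same comparison. It stood at 7.61, 15.55 and 11.06 FPKM in untreated wild type, and at 89.94, 88.92 and 137.73 FPKM in untreated knockout. No libraries of the 2 groups overlapped. The means were 11.4 ± 3.98 and 106 ± 27.9 FPKM (SD, n = 3), a 9.25-fold ratio, and the log2 difference was 3.12 ± 0.77 (SE). Of all genes tested, 56.3% had groups that did not overlap in this comparison, and 45.1% passed an adjusted p of 0.05 in limma, so a difference between these groups is common among genes. In a bulk library, fewer cells of a type and less RNA per cell cannot be told apart.

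**Figure D1:**
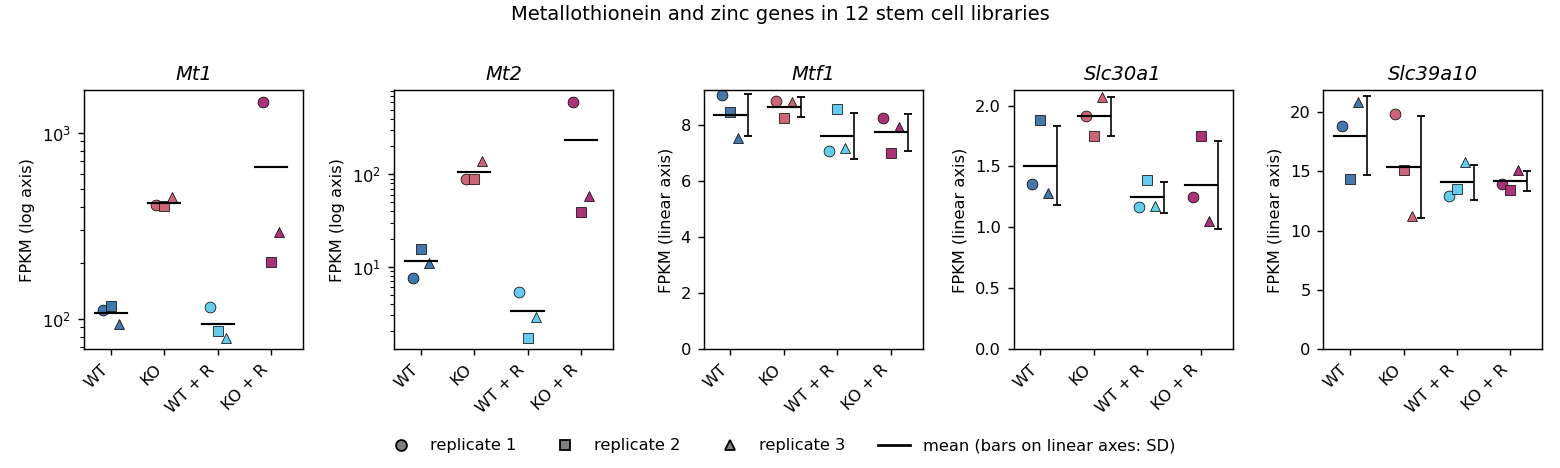
FPKM of the 5 genes in each library, by group (WT, Thpo+/+; KO, Thpo-/-; R, Romiplostim); marker shapes give the replicate number and the lines give the mean, with the SD as a bar on linear axes. Mt1 and Mt2, on log axes, lie higher in every knockout library than in any wild-type library, and treated knockout replicate 1 lies far above the rest; Mtf1 and Slc39a10 overlap in all groups.

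Under Romiplostim, Mt2 was lower in wild type. Its levels were 5.34, 1.71 and 2.89 FPKM in the treated libraries, all below the 7.61 to 15.55 of untreated wild type. The treated mean was 3.31 ± 1.85 FPKM (SD, n = 3), and the log2 difference was -1.56 ± 0.77 (SE). Mt1 was at 115.38, 86.09 and 79.02 FPKM, with a mean of 93.5 ± 19.3 (SD, n = 3). These values overlapped untreated wild type. Groups without overlap made up 26.8% of all genes in this comparison, and 1.84% of genes passed limma's threshold.

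In the knockout, the treated libraries did not form 1 level. Mt1 was at 1457.95 FPKM in replicate 1, 201.36 in replicate 2 and 293.38 in replicate 3. Mt2 was at 603.31, 39.39 and 58.96 FPKM. Replicate 1 was above all 3 untreated knockout libraries for both genes, and replicates 2 and 3 were below all 3. The means, 651 ± 700 FPKM for Mt1 and 234 ± 320 for Mt2 (SD, n = 3), therefore describe no library. In replicate 1 Mt1 ranked 97 and Mt2 ranked 251 among all genes.

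The difference between treated and untreated knockout turned on that library. Over all 3 treated libraries it was 0.08 ± 0.53 (SE) for Mt1 and 0.12 ± 0.77 for Mt2. Without replicate 1 it was -0.78 for Mt1 and -1.08 for Mt2. The mean of replicates 2 and 3 was 247 FPKM for Mt1, which is 0.59 of the untreated knockout mean, and 49.2 FPKM for Mt2, which is 0.466 of it. Groups without overlap made up 40.3% of all genes here, and neither metallothionein was among them.

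Treated knockout still lay above treated wild type for both genes, with no overlap, against 25.1% of all genes without overlap. The log2 difference was 2.25 ± 0.53 (SE) for Mt1 and 4.81 ± 0.77 for Mt2. Without treated knockout replicate 1 these were 1.39 and 3.6. Replicates 2 and 3 averaged 2.65 times the treated wild-type mean for Mt1 and 14.8 times for Mt2. The interaction, meaning how much larger the response to Romiplostim was in knockout than in wild type, was 0.29 ± 0.75 (SE) for Mt1 and 1.68 ± 1.09 for Mt2, and -0.57 and 0.48 without that library.

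Mt2 also made up a different share of the pair. Relative to Mt1, Mt2 FPKM was 6.82%, 13.2% and 11.8% in untreated wild type, and 22.1%, 22.2% and 30.6% in untreated knockout. It was 4.62%, 1.98% and 3.66% in treated wild type, and 41.4%, 19.6% and 20.1% in treated knockout. All 6 knockout libraries thus lay above all 6 wild-type libraries, and treated wild type was below untreated wild type. The level of this ratio depends on the gene lengths the authors used, since Mt1 has 1246 bases of merged exons in GENCODE M21 but 549 in transcript Mt1-201. Its order across libraries does not.

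**Figure D2:**
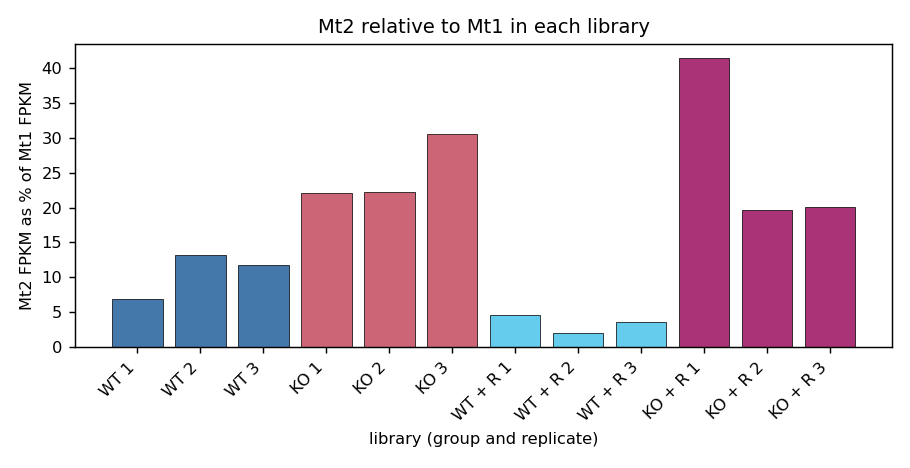
Mt2 FPKM as a percentage of Mt1 FPKM in each of the 12 libraries (bars, from 0; WT, Thpo+/+; KO, Thpo-/-; R, Romiplostim; the number is the replicate). Wild-type libraries range from 1.98% to 13.2% and knockout libraries from 19.6% to 41.4%.

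Of the 12 erythroid markers, 7 were highest of the treated knockout libraries in replicate 1, as Mt1 and Mt2 were, and 5 were highest in replicate 3. The share of all genes highest in replicate 1 was not counted. Some mast cell and basophil markers were also highest in it: Mcpt8 (10.0, 0.62 and 0.52 FPKM), Prss34 (9.49, 0.02 and 0.0) and Fcer1a. Of that list Hdc and Gata2 were lowest in it, and Cpa3, Ms4a2 and Cd200r3 lay between. Car1, a carbonic anhydrase of early erythroid cells, was at 109.99 to 160.24 FPKM in untreated wild type and 1993.72 to 2308.56 in untreated knockout. In treated knockout it was 5803.79, 600.43 and 796.61 FPKM, again highest in replicate 1. Klf1, the erythroid master transcription factor, stood at 252.41, 58.04 and 48.18 FPKM in the treated knockout, and Rhd, a red cell membrane protein, at 196.31, 41.74 and 37.72. Replicate 1 exceeded replicate 2 by 9.67 times for Car1, 4.35 times for Klf1 and 4.70 times for Rhd, beside 7.24 times for Mt1 and 15.3 times for Mt2. The 5 that were highest in replicate 3 were Alas2, the first enzyme of heme synthesis (6.02, 5.93 and 8.18 FPKM), the anion exchanger Slc4a1 (1.78, 1.6 and 3.2) and the globins Hba-a1, Hbb-bs and Hbb-bt. Hbb-bs was at 466.35, 236.9 and 552.16 FPKM there, and its highest level, 6560.6 FPKM, was in untreated knockout replicate 3.

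Over the erythroid list without its 3 globins, the summed level was 1564.2 to 1910.1 FPKM in untreated wild type and 4314.3 to 4950.3 in untreated knockout. It was 1521.0 to 1866.9 in treated wild type and 2271.6 to 9041.8 in treated knockout, and no erythroid marker was at 0 in a whole group. Car1 and Car2 made up most of that sum, at 5803.79 and 2610.05 FPKM in treated knockout replicate 1. With the globins the sum was 2214.9 to 3184.2 FPKM in untreated wild type and 5217.9 to 18101.4 in untreated knockout. It was then 1852.7 to 2085.8 in treated wild type and 2875.6 to 10199.9 in treated knockout. Of the 12 erythroid markers, 4 fell in wild type under Romiplostim, where 1.84% of all genes changed. In knockout 5 fell under it, where 29.6% of all genes changed. Between the treated groups 5 were higher in knockout, where 1.37% of all genes differed. The macrophage list summed to 862.4 to 2622.6 FPKM in untreated knockout but 50.8 to 101.0 in treated knockout, and the B cell list to 1716.4 to 4237.2 and 96.2 to 655.0. In treated wild type the macrophage sum was 10.8 to 20.1 FPKM with Marco at 0, and the B cell sum 67.2 to 70.4 with Pax5 at 0. The part of these cell types in the metallothionein levels was not tested.

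**Figure D3:**
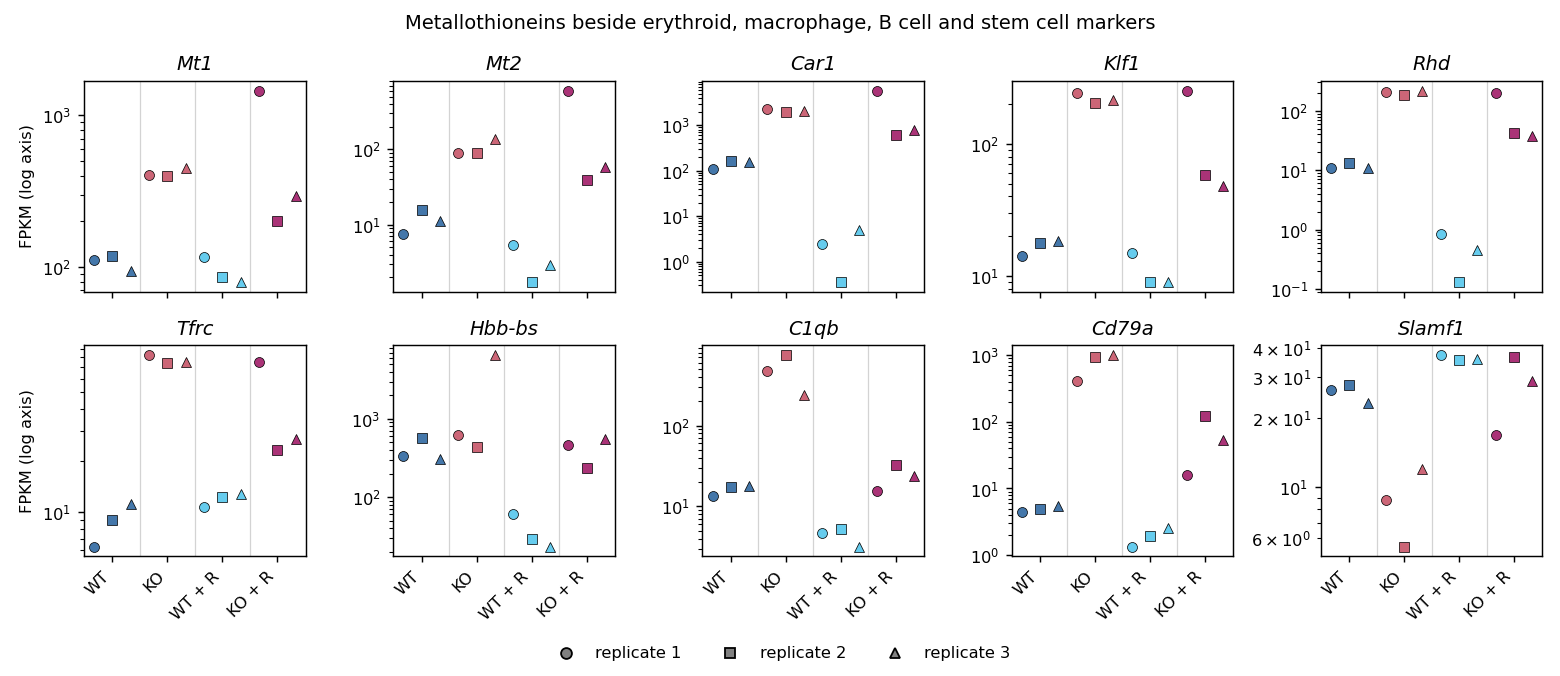
FPKM (log axes) of Mt1, Mt2, erythroid markers (Car1, Klf1, Rhd, Tfrc, Hbb-bs), a macrophage marker (C1qb), a B cell marker (Cd79a) and a stem cell marker (Slamf1) in each library (WT, Thpo+/+; KO, Thpo-/-; R, Romiplostim; shapes give the replicate). Treated knockout replicate 1 is the highest treated knockout library for Mt1, Mt2, Car1, Klf1, Rhd and Tfrc but the lowest for C1qb, Cd79a and Slamf1.

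In treated knockout replicate 1, where the metallothioneins were highest of that group, 9 of 10 macrophage markers, 10 of 10 B cell markers and 11 of 12 stem cell markers were at their lowest of the 3 libraries. How many of all genes were lowest in it was not counted. The exception among macrophage markers was Marco, at 0.25 FPKM against 0.02 and 0.19. The macrophage gene C1qb, a complement subunit, was at 15.68, 32.89 and 24.01 FPKM, and Cd79a, a B cell receptor chain, at 15.92, 121.63 and 52.87. In the untreated knockout C1qb had been 469.14, 743.71 and 236.35 FPKM. The stem cell receptor Slamf1 was also lowest there, at 16.91 FPKM against 36.65 and 28.79.

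Mtf1, the zinc sensor, was at a like level in the 4 groups. It was at 9.05, 8.47 and 7.54 FPKM in untreated wild type and 8.84, 8.24 and 8.83 in untreated knockout. Under Romiplostim it was 7.08, 8.56 and 7.19 in wild type and 8.25, 7.01 and 7.94 in knockout. Every pair of groups overlapped. The log2 difference between untreated knockout and untreated wild type was 0.05 ± 0.12 (SE).

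Slc30a1, the zinc exporter of the plasma membrane, was low throughout. It stood at 1.36, 1.88 and 1.28 FPKM in untreated wild type and 1.91, 1.75 and 2.07 in untreated knockout, which overlapped, with a log2 difference of 0.22 ± 0.15 (SE). In treated knockout it was 1.25, 1.75 and 1.05 FPKM, with its highest value at the lowest untreated knockout value when rounded to 2 decimals, and in treated wild type 1.17, 1.39 and 1.18. The log2 difference between treated and untreated knockout was -0.32 ± 0.15 (SE). Treated knockout replicate 1, with the highest Mt1 and Mt2, was not the highest of its group for Slc30a1.

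Slc39a10, a zinc importer of the plasma membrane, varied as much within groups as between them. Its levels were 18.85, 14.34 and 20.82 FPKM in untreated wild type and 19.85, 15.09 and 11.28 in untreated knockout. In treated wild type they were 12.96, 13.51 and 15.77, and in treated knockout 13.94, 13.48 and 15.09. All pairs of groups overlapped. The log2 difference between untreated knockout and untreated wild type was -0.23 ± 0.19 (SE), which leaving out single libraries took from -0.42 to -0.04.

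By mean level, both metallothioneins were highest in treated knockout, then untreated knockout, untreated wild type and treated wild type. For Mt1 the only neighbours in that order without overlap were untreated knockout and untreated wild type, and for Mt2 untreated and treated wild type also did not overlap. For Mtf1 and Slc30a1 the order was untreated knockout, untreated wild type, treated knockout and treated wild type, and all neighbours overlapped. For Slc39a10 it was untreated wild type, untreated knockout, treated knockout and treated wild type, again with overlap throughout.

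Across the 12 libraries Mt1 and Mt2 followed each other with a Pearson r of 0.97, while r between other pairs of the 5 genes was -0.23 to 0.44. These are descriptions over libraries that share groups and sequencing runs. The tested genes most like Mt1 were Ank1 (r = 0.98), Gml2 (0.978) and Fam241a (0.973). Ank1, the red cell ankyrin, was at 1.54 to 2.08 FPKM in untreated knockout, 0.2 to 0.32 in untreated wild type and 3.64 in treated knockout replicate 1. Those most like Mt2 were Tspo2 (0.979), Prss50 (0.978) and Slc25a21 (0.976). Tspo2, a translocator protein of erythroid cells, was at 137.55, 21.4 and 28.55 FPKM in treated knockout and 0.71 to 1.17 in treated wild type. The likest to Mtf1 were Gstcd (0.89), Nckap1 (0.766) and Ccl2 (0.736), to Slc30a1 Mdm2 (0.915), Lmbrd1 (0.886) and Ssh2 (0.882), and to Slc39a10 Pdxk (0.87), Twnk (0.867) and Mblac1 (0.862).

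The other zinc genes numbered 24: Mt3 and Mt4, 9 further SLC30 exporters and 13 further SLC39 importers, of which 16 passed the filter and were tested. The 8 left out had too few libraries at 1 FPKM and included Mt4, the metallothionein of squamous epithelia, which was listed at 0 in all 12 libraries. The highest by mean level over all libraries were Slc39a11 at 60.03 FPKM, Slc30a5 at 30.22 and Slc39a13 at 21.52. These transporters, unlike the 5 genes above, were tested with limma and Benjamini-Hochberg adjustment over all 12823 genes.

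In untreated knockout against untreated wild type, 4 of the 16 rose and 4 fell, with a median log2 difference of 0.10 beside -0.03 over all genes. That share, 50%, is near the 45.1% of all genes. Slc30a5, which loads zinc into the secretory pathway, rose from 21.50, 22.33 and 21.90 FPKM to 49.28, 65.60 and 40.92, by 1.18 ± 0.16 (limma adjusted p = 0.000183). Slc39a8, an importer of zinc and manganese, rose from 3.81, 1.87 and 2.92 to 8.96, 8.39 and 8.32 FPKM, by 1.34 ± 0.22 (limma adjusted p = 0.000506). Neither gene's groups overlapped.

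Of the falling importers, Slc39a13, which releases zinc from Golgi vesicles, went from 27.92 to 30.20 FPKM in untreated wild type to 16.08 to 18.98 in untreated knockout, a change of -0.72 ± 0.17 (limma adjusted p = 0.00516). Slc39a14, a carrier of zinc and iron, went from 6.90 to 7.74 FPKM to 4.31 to 5.04, a change of -0.58 ± 0.15 (limma adjusted p = 0.00708). Slc39a1, Slc39a9, Slc30a4 and Mt3 passed less firmly, with limma adjusted p-values of 0.0272, 0.0218, 0.0452 and 0.0223. Slc39a9 rose by 0.42 and Mt3, the metallothionein best known from neurons, by 1.01, while Slc39a1 and Slc30a4 had changes of -0.97 and -0.43. Mt3 reached 1 FPKM only in knockout libraries, so it passed the filter only through the genotype where it was high. Its rise and its place among the 8 are therefore no independent result. The count of 8 went to 4 without untreated wild type replicate 3 or untreated knockout replicate 2, and to 5 without untreated wild type replicate 2 or untreated knockout replicate 1. Slc30a5, Slc39a8, Slc39a13 and Slc39a14 passed under every alternative tried.

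In treated against untreated knockout, 4 of the 16 zinc genes fell and none rose, beside 29.6% of all genes changed. Slc30a5 came to 24.40, 30.37 and 22.91 FPKM, a change of -0.96 ± 0.16 (limma adjusted p = 0.00159). Slc39a8 came to 5.72, 3.75 and 2.91 FPKM, a change of -0.94 ± 0.22 (limma adjusted p = 0.0082). Slc39a3, an importer of the plasma membrane, changed by -0.58 (limma adjusted p = 0.0186) and Mt3 by -0.92 (limma adjusted p = 0.0487). The call of Mt3 was lost in 10 of 14 alternatives and that of Slc39a3 in 5 of 18. Mt3 reached 1 FPKM in only 3 libraries, all of them knockout, at 1.90, 2.89 and 1.24. The count was 2 without untreated knockout replicate 1 or treated knockout replicate 3. With a term for the level of the Y-linked genes, which separate these groups, 1 of the 16 passed.

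**Figure D4:**
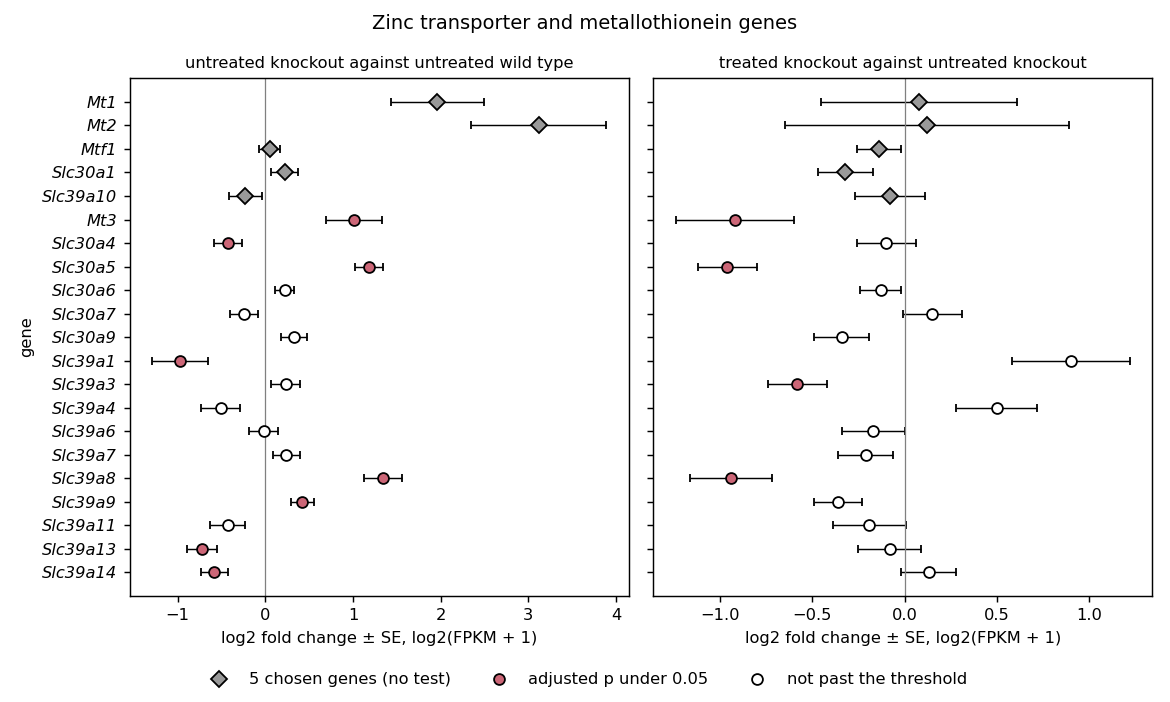
Log2 difference ± SE, on the log2(FPKM + 1) scale, of the 5 chosen genes (grey diamonds, no test) and the 16 other zinc genes tested (circles, red where limma's adjusted p was under 0.05), for 2 comparisons. In untreated knockout against untreated wild type 4 circles are red on each side of 0, and in treated against untreated knockout 4 are red, all below 0.

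In treated against untreated wild type, limma called none of the 16, and 2 had an unadjusted p under 0.05. Replicates with the same number deviated together in the wild-type groups, and with the replicate as a block in these groups 2 passed, beside 6.74% of all genes in that fit. These were Slc39a4, an importer of zinc, at 0.66 ± 0.10 (SE), and Slc39a11 at -0.45 ± 0.08. In treated knockout against treated wild type, where 1.37% of all genes passed, limma called none and 2 had an unadjusted p under 0.05. Without treated knockout replicate 2, 2 of the 16 passed there.

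The agonist effect differed between genotypes for 1 of the 16, Slc30a5, beside 15.6% of all genes. The interaction was -0.91 ± 0.23 (limma adjusted p = 0.0229). In treated wild type Slc30a5 was at 21.55, 19.39 and 22.54 FPKM, close to untreated wild type. The call was lost without treated wild type replicate 1 or 3 or treated knockout replicate 3, and with a term for the level of the Y-linked genes.

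Among 9 other genes linked to Mtf1 or to the metal response, 8 were tested, and 4 rose and 2 fell in untreated knockout, beside 45.1% of all genes changed. The largest changes were in 2 genes of iron and heme turnover that macrophages express strongly. Slc40a1, the iron exporter ferroportin, was at 9.85, 8.55 and 9.48 FPKM in untreated wild type and 464.85, 468.59 and 196.67 in untreated knockout, a rise of 5.09 ± 0.34 (limma adjusted p = 4.77e-06). Hmox1, the heme-degrading oxygenase, went from 20.12, 37.92 and 26.26 to 381.59, 465.87 and 240.58 FPKM, by 3.64 ± 0.27 (limma adjusted p = 5.74e-06). Gclc, which makes the glutathione precursor, rose by 0.98 ± 0.14 (limma adjusted p = 0.000181), and the iron importer Slc11a2 by 1.77 ± 0.26 (limma adjusted p = 0.000246). The macrophage list rose in 10 of 10 members in the same comparison, and its part was not tested.

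In treated against untreated knockout, 6 of these 8 fell and 1 rose, beside 29.6% of all genes changed. Hmox1 came to 20.67, 34.85 and 27.03 FPKM, a change of -3.65 ± 0.27 (limma adjusted p = 1.19e-05), and Slc40a1 to 40.03, 22.88 and 16.04, a change of -3.78 ± 0.34 (limma adjusted p = 3.44e-05). Unlike Mt1 and Mt2, Hmox1 was lowest in treated knockout replicate 1. Csrp1 and Tmem163 were also lowest in that library and Ndrg1 lay between. Slc40a1, Gclc, Slc11a2 and Selenow were highest there, as Mt1 and Mt2 were. In wild type, 1 of the 8 changed with Romiplostim, beside 1.84% of all genes. Hmox1 fell there to 3.08, 2.59 and 2.80 FPKM, a change of -2.88 ± 0.27 (limma adjusted p = 0.000286). Between the treated groups 3 of the 8 passed, beside 1.37% of all genes. Treated knockout was above treated wild type for Hmox1 by 2.87 and Slc40a1 by 2.49, and below it for Ndrg1, a stress-induced gene, with -1.49 (limma adjusted p-values of 0.000753, 0.00583 and 0.00695). The call of Ndrg1 was lost without treated wild type replicate 2 and also with a term for the level of the Y-linked genes. The interaction was past the threshold for Slc40a1 (-2.60 ± 0.48, limma adjusted p = 0.00639).

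Copper handling genes, of which 12 of 14 were tested, split in direction. In untreated knockout 4 rose and 2 fell, a share of 50% that is near the 45.1% of all genes. Among them were Steap3, a metalloreductase of erythroid iron uptake, up by 2.04 ± 0.41 (limma adjusted p = 0.00192) and the copper pump Atp7b up by 1.24 ± 0.32 (limma adjusted p = 0.00813). Steap3 stood at 19.25, 3.31 and 6.75 FPKM in treated knockout and Atp7b at 3.32, 0.53 and 0.56, both highest in replicate 1 as Mt1 and Mt2 were. Ccs, the copper chaperone of superoxide dismutase, changed by -0.75 ± 0.16 (limma adjusted p = 0.00241). In treated against untreated knockout 3 of the 12 rose (Atox1, Ccs and Sod1) and 1, the transporter Slc31a2, fell, beside 29.6% of all genes changed. None of these 3 rises passed without untreated knockout replicate 1 or 2 or without treated knockout replicate 1 or 3, and the fall of Slc31a2 did not pass without untreated knockout replicate 3. In the comparisons within wild type, between treated genotypes and of the interaction limma called none, with 1, 2 and 2 at an unadjusted p under 0.05.

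The 12 genes induced by glucocorticoids also moved both ways. In untreated knockout 2 rose and 3 fell, a share of 41.7% that is near the 45.1% of all genes. Sgk1, a kinase of this response, rose from 19.98, 12.99 and 6.37 to 48.72, 60.97 and 37.52 FPKM, by 1.93 ± 0.43 (limma adjusted p = 0.00375), while Klf9 changed by -1.08 ± 0.24 (limma adjusted p = 0.00309) and the clock gene Per1 by -0.91 ± 0.23 (limma adjusted p = 0.00711). In treated against untreated knockout 2 rose and 4 fell, beside 29.6% of all genes changed, with Sgk1 at 4.39, 16.72 and 5.79 FPKM. Sgk1 was lowest in treated knockout replicate 1, the library with the highest Mt1 and Mt2. Per1 was highest there, at 2.31 FPKM against 1.39 and 2.13. Zbtb16, Klf9 and Ddit4 lay between, and the rest of the list was lowest there. In wild type under Romiplostim limma called none, beside 1.84% of all genes, with 1 at an unadjusted p under 0.05. Between the treated groups 1 of the 12 was called, beside 1.37% of all genes. It was Nfkbia, an inhibitor of NF-kappaB, lower in knockout at -1.19 (limma adjusted p = 0.0472). That call did not hold in 11 of the 18 alternatives run for it. The median log2 difference of this list in untreated knockout against untreated wild type was -0.53, beside -0.03 over all genes. A part of glucocorticoids was not tested.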

How the data were processed

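RNA of 12 sorted stem cell libraries was amplified with a low-input kit and sequenced as 150-base read pairs, per the labels' protocols. FPKM values per gene were calculated and deposited by the authors. Per the submitters' processing notes the genome was mm10 and the tools included TopHat2 and Cufflinks 2.2.1, with no role stated, and annotation, gene lengths and multi-mapping rules are not given in the sources used here. Symbols matched for 34490 of 35275 identifiers. Depth was estimated from the steps between low values with GENCODE M21 exon lengths: 48.5% to 53.3% of values under 50 fragments per library came out whole within 0.05, too few for a count test.

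Values were taken as log2(FPKM + 1), genes reaching an FPKM of 1 in 3 or more libraries were kept, and limma 3.58.1 under R 4.3.3 estimated the group means from the 12 libraries together (intensity trend, two-sided, Benjamini-Hochberg within each comparison, threshold 0.05). The fit was tested on simulated data. An exact test of 3 against 3 libraries cannot go below p = 0.1. The members and lists were chosen with earlier results of these data known. All members were named, as were other zinc genes past the threshold or among the 3 highest by mean, at most 4 genes per comparison of the other lists, and the 3 genes likest to each member by Pearson r. The alternatives covered pseudocount, filter, scaling, trend, weights, samples fitted, replicate block and each library left out.

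The labels number replicates 1 to 3 in each group. Deviations from group means correlated at 0.40, 0.12 and 0.38 in the 3 same-numbered wild-type pairs, each over the 0.1 taken to mean pairing. Over all 18 same-numbered pairs they ranged from -0.19 to 0.40, with 6 over 0.1, so pairing was taken up for the wild-type groups only. The main fit held no replicate block and so ignores this pairing. A block in the wild-type groups was run as an alternative. In treated against untreated wild type it called 6.74% of all genes, against 1.84% in the main fit. Motifs were searched in RefSeq promoter windows of GRCm38.p6.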

Additional observations from a re-analysis of the deposited data

Results flagged for a closer look

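The effect of Romiplostim differed between knockout and wild type for 4 genes of the lists, by limma's interaction term with Benjamini-Hochberg adjustment. The zinc transporter Slc30a5 had an interaction of -0.91 (adjusted p = 0.0229), and 4 of 23 alternatives lost that call, with adjusted p-values from 0.000375 to 0.116. For the iron exporter Slc40a1 it was -2.60 (adjusted p = 0.00639), lost under 1 of 23, the term for Y-linked level, with a range of 1.57e-05 to 0.067. Sgk1 had -1.98 (adjusted p = 0.0481), lost under 15 of 23, and Per1 had 1.03 (adjusted p = 0.0498), lost under 14 of 22. All 3 libraries of each of the 4 groups lay on 1 sequencing run, so these differences cannot be told apart from run. Y-linked levels were 0.01 to 0.04 FPKM in treated knockout and 11.3 to 24.9 in untreated knockout. The differences therefore cannot be told apart from sex either.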

How the results depend on the processing

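Of 475 log2 differences of the 5 genes recomputed under 25 settings, 463 moved by less than 1 SD, and of 96 counts of other zinc genes 68 stayed within 1.5 times. Changes of filter, trend, groups fitted and replicate block cannot alter a log2 difference, so part of the 463 was fixed in advance. For Mt1 and Mt2, treated knockout replicate 1 also widened the SD used in comparisons with its group. Leaving out single libraries took the difference between treated and untreated knockout from -0.78 to 0.64 for Mt1 and from -1.08 to 0.87 for Mt2, and the interaction from -0.57 to 0.86 and from 0.48 to 2.43. Without untreated knockout library 3 and treated knockout library 1, an alternative chosen after seeing the data, the interaction of Mt1 was -0.52, and the zinc genes called numbered 4 (interaction), 7 (treated against untreated knockout) and 1 (treated against untreated wild type). Quantile normalization, which shifted the median of all genes in treated against untreated knockout from -0.09 to 0.07, turned Mtf1 there to 0.06 against -0.14, and median-of-ratios scaling gave -0.05. Quantile normalization also gave an Mtf1 interaction of 0.14 and 3 zinc genes in the interaction. Slc30a1 was -0.5 in treated against untreated knockout with a pseudocount of 0.1, and with array weights -0.36 for the interaction and -0.12 between treated genotypes. A term for Y-linked level, chosen after seeing the data, gave Slc39a10 0.54 (interaction), 0.21 (treated genotypes) and 0.22 (knockout, treated against untreated), and 0 and 1 zinc genes in the interaction and in treated against untreated knockout. Array weights called 10 zinc genes in the interaction, 5 between treated genotypes, 9 in treated against untreated knockout and 4 in wild type, and called more genes of all kinds. A filter at 5 FPKM, which tested 11 zinc genes, called 5 in untreated knockout against wild type, and a fit of only the groups compared called 2 in treated against untreated knockout. Single libraries left out gave 4 to 8 zinc genes in untreated knockout against wild type, 2 to 6 in treated against untreated knockout, 0 to 2 between treated genotypes and 0 to 3 in the interaction. The replicate block over all groups called 3 in the interaction, and the block in wild-type groups, chosen after seeing the data, 2 in treated against untreated wild type; with the block over all groups 3 calls of named genes were lost (Mt3 in treated against untreated knockout, Nfkbia between treated genotypes and Per1 in the interaction). The cause of these moves was not tested. Of 45 calls of named genes, 21 passed under every alternative. Slc30a1, with 174 to 326 fragments a library, and Mt2 in treated wild type, from 29 fragments, are limited most by depth.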
